A study of Mus musculus with 6 samples.

Results

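The clustered protocadherins are cell-surface adhesion proteins of the cadherin superfamily whose genes lie side by side on mouse chromosome 18 in an alpha, a beta and a gamma subcluster. Their messenger RNA was read from gene-level counts of bulk RNA sequencing of cerebellum, in which 57 of 48709 rows carry a symbol beginning with Pcdha, Pcdhb or Pcdhg and are annotated as protein-coding on that chromosome. Of these, 14 belong to the alpha, 22 to the beta and 21 to the gamma subcluster. Pcdhgb8, annotated as a polymorphic pseudogene and listed at 1 to 8 counts, is not among them.

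The compared groups were 3 cerebellum samples of SCA7 knock-in mice and 3 of wild-type mice, all of strain C57BL/6J and aged 40 weeks. The knock-in mice carry a long Atxn7 allele encoding 140 glutamines and a short allele encoding 5 glutamines, a model of spinocerebellar ataxia type 7 in which the mutant protein is made wherever Atxn7 is normally active. The comparison asks which cerebellar transcripts differ with the expanded allele. Replicates are numbered in the labels without a statement that each is a different animal, and p-values therefore reflect the spread among 3 such samples per group, part of which may be technical.

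In the alpha and gamma subclusters each gene supplies a long variable exon for the extracellular, transmembrane and proximal cytoplasmic parts, which is spliced to constant exons shared by all genes of the subcluster. Beta genes consist of a single coding exon and have no constant part. Neurons switch on a varying subset of the alternate isoforms by choosing among promoters, a step that involves CTCF, cohesin and DNA methylation, whereas the C-type isoforms at the end of the alpha and gamma arrays are expressed more uniformly. The proteins bind like to like between membranes, and in mice the gamma subcluster is needed for Purkinje cell dendrites to avoid branches of their own cell.

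The libraries held between 34630391 and 49127673 counts, of which at least 99.94% fell on the 16699 genes tested. Atxn7 itself had 22.4, 24.0 and 22.1 CPM (counts scaled to a common library size of 1000000, with TMM factors) in the knock-in samples, against 25.9, 26.2 and 22.6 CPM in the wild-type samples, which does not check the genotype because counts per gene do not separate the alleles. All 10 defining markers of cerebellum were detected, at summed levels of 4751 to 5569 CPM in knock-in and 6124 to 6553 CPM in wild type. Wild-type replicate 1 and knock-in replicate 3 stood apart in base composition, with rank correlations of -0.54 and 0.32 between a gene's GC content and its deviation from the mean of all libraries. Knock-in replicates 1 and 2 had 0.01 and 0.21, and wild-type replicates 2 and 3 had 0.04 and 0.03. With gene length in exon bases the same deviation had rank correlations of -0.08, 0.14 and -0.42 in knock-in and 0.09, 0.28 and -0.02 in wild type. Knock-in replicates 1 and 3 stood apart in brainstem markers, whose summed level was 77.0, 15.5 and 51.5 CPM in knock-in and 16.2, 23.2 and 17.7 CPM in wild type. Over all 16699 genes, 1.28% were called lower and 0.629% higher in knock-in at an edgeR quasi-likelihood adjusted p at or under 0.05, and the median log2 fold change was 0.01.

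How reads on shared exons were treated sets what a count stands for. By GENCODE M21 the constant exons belong to every alpha or every gamma gene at once, and 4 further gene models within the locus have no exon base of their own. All 4 were at 0 counts in every library. Over the whole genome, 101 of 142 such gene models were at 0 and 128 had under 10 counts in all 6 libraries together, so that 0 was common but not general. Each member was therefore taken as measured by the bases it does not share, a reading that the values at this locus allow and no source states. Those own bases numbered a median of 2479.5 for alpha, 3714 for beta and 2637 for gamma genes. Pcdha4 had only 494, because its variable exon is shared with another gene model, and its 7 to 13 counts per library therefore say little about its transcript. Pcdhga10 had 407 to 635 counts per library although none of its 2613 own bases is free of an antisense gene model. The counts were therefore taken to separate the strands at this locus, a reading that rests on this gene. Over the whole genome, 43 of 132 genes in this position (at least 500 own bases) had over 10 counts in total, with a median of 4.5. Variable exons also resemble each other. Of all windows of 50 bases within a gene's own bases, a median of 13.99% in alpha, 3.48% in beta and 0.778% in gamma genes also occur in a transcript of another gene. None do in any of the 5 C-type genes, while Pcdha6 and Pcdha7 have the highest shares, 29.2% and 25.5%. By this measure alone, their levels are the most exposed to sequence shared with other genes.

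Measured per kilobase of own bases, the members spanned a wide range, and their order was nearly the same in every library. The rank correlation of levels between any 2 libraries over the 57 genes was 0.964 to 0.988, a description of genes that share libraries and depth. The plot of levels along the locus shows 1 gene far above the rest. Pcdhgc3, a C-type isoform needed in mice for dendrite branching of cortical neurons, averaged 47.1 CPM per kb in knock-in and 55.5 CPM per kb in wild type. It supplied 35, 36.6 and 37.6% of all gamma counts in the knock-in libraries and 34.1, 36.6 and 37.2% in the wild-type libraries.

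**Figure D1:**
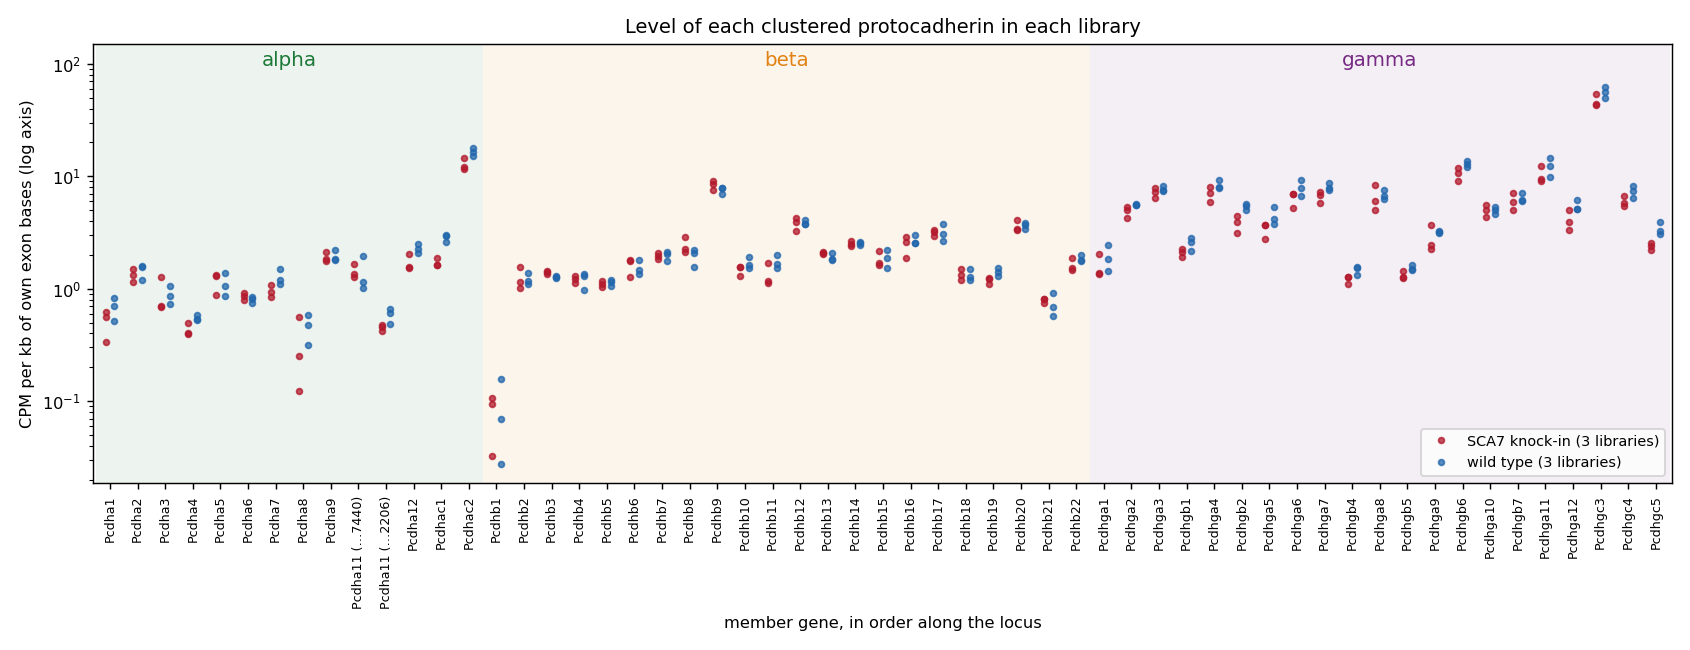
Level of each of the 57 clustered protocadherins, as CPM per kb of own exon bases on a log axis, in the 3 SCA7 knock-in (red, left) and the 3 wild-type libraries (blue, right). Genes run in order along the locus and shading marks the subclusters. Pcdhgc3 averages 47.1 CPM per kb in knock-in and 55.5 CPM per kb in wild type, while Pcdhb1 averages 0.0777 and 0.0852 CPM per kb.

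Next came Pcdhac2, the C-type isoform needed in mice for the spacing of serotonergic axons, with 12.7 CPM per kb in knock-in and 16.5 CPM per kb in wild type. It made up 52.8, 53.8 and 54.1% of alpha counts in knock-in libraries and 55.5, 54.9 and 56.2% in wild-type libraries, without overlap. The alternate alpha isoforms were scarce. The highest of them, Pcdha12, had 1.72 CPM per kb in knock-in and 2.28 CPM per kb in wild type, and the lowest with a full-length variable exon counted, Pcdha8, had 0.311 and 0.460 CPM per kb. Pcdhac1, the other alpha C-type isoform, reached 1.70 CPM per kb in knock-in and 2.85 CPM per kb in wild type.

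Most beta genes, 19 of 22, averaged between 1 and 4 CPM per kb in both groups. Pcdhb9 led with 8.42 CPM per kb in knock-in and 7.59 CPM per kb in wild type, followed by Pcdhb12 and Pcdhb20. Pcdhb1, at 3 to 20 counts per library, was the lowest of all 57 genes, and Pcdhb21 was next within the subcluster at 0.788 CPM per kb in knock-in and 0.723 CPM per kb in wild type. Gamma genes were the most abundant as a group. The median gamma level exceeded the median alpha level by 4.88-fold, averaged over the 6 libraries (SD 0.567). After Pcdhgc3 the highest were Pcdhgb6, at 10.6 CPM per kb in knock-in and 12.8 in wild type, and Pcdhga11, at 10.3 and 12.3 CPM per kb. Pcdhgb4 and Pcdhgb5 were the lowest, at 1.22 and 1.31 CPM per kb in knock-in and 1.47 and 1.53 CPM per kb in wild type.

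In knock-in cerebellum the alpha and gamma genes were mostly below their wild-type level and the beta genes were spread around it. Summed over members, alpha reached 69.0, 81.6 and 65.4 CPM in knock-in and 82.9, 98.3 and 88.2 CPM in wild type. Gamma summed to 425, 501 and 387 CPM in knock-in and 488, 570 and 506 CPM in wild type. Beta summed to 199, 191 and 178.5 CPM in knock-in and 181, 204 and 189 CPM in wild type. The alpha sums did not overlap between the groups, the gamma sum of knock-in replicate 2 lay above that of wild-type replicate 1, and the beta sums overlapped throughout.

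The mean sum differed by -19.8% for alpha, -16.03% for gamma and -0.827% for beta. With 3 samples in each group these sums are given without a test. The median log2 fold change was -0.35 for alpha, -0.01 for beta and -0.27 for gamma genes, beside 0.01 over all genes tested. With scaling by library size alone the medians were -0.28 for alpha and -0.20 for gamma, and that for beta turned to 0.07.

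Of the 57 genes, 44 had a negative log2 fold change, as did 48.7% of all genes tested. They were 10 of 14 alpha, 13 of 22 beta and all 21 gamma genes (20 of 21 gamma genes with scaling by library size alone). In 16 genes every knock-in sample was below every wild-type sample, namely 6 alpha, 1 beta and 9 gamma genes. That is 28.1% of the members, against 11.5% of all genes tested. Only Pcdhb3, singled out after its values were seen, had every knock-in sample above every wild-type sample, where 12.3% of all genes did. The genes share 1 locus and 6 libraries, so they are not independent of each other.

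**Figure D2:**
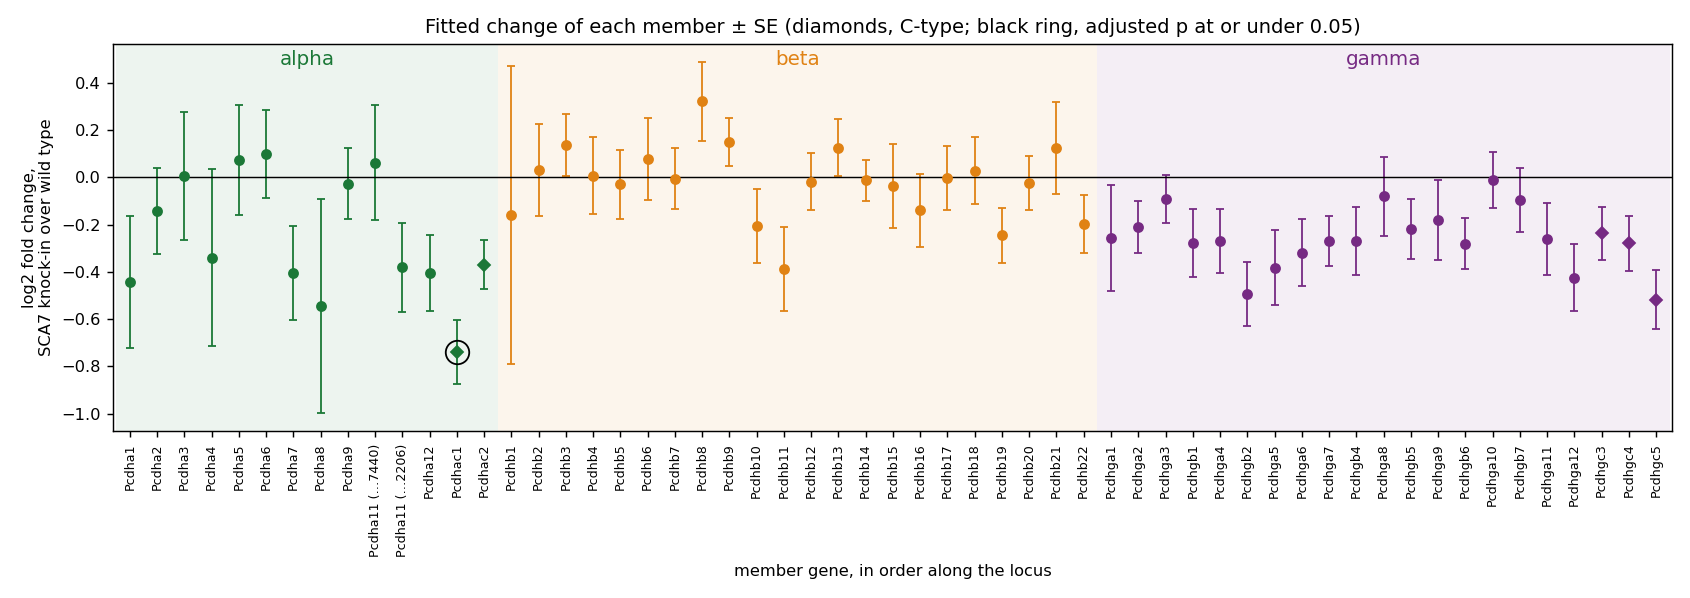
Fitted log2 fold change of SCA7 knock-in over wild type for each member, with the standard error as bars, in order along the locus. Diamonds mark C-type isoforms and the black ring marks the gene called at an adjusted p at or under 0.05, Pcdhac1 at -0.74. All 21 gamma genes lie below 0, whereas 9 of 22 beta genes lie above it.

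A single member passed the threshold over all genes. Pcdhac1 (ENSMUSG00000103255, mm10 chromosome 18, bases 37090013 to 37187657 of the plus strand) measured 4.14, 4.79 and 4.15 CPM in knock-in samples, against 7.56, 7.63 and 6.66 CPM in wild-type samples. The groups did not overlap. Its log2 fold change was -0.74 ± 0.14 (SE, 3 against 3 samples), and its mean fell by 40.1%, with an edgeR adjusted p of 0.026. This is 1 of 57 members (1.75%) against a background of 1.28% called lower, so the count of calls does not set the family apart. The call rested on all 6 libraries but for knock-in replicate 2. Without knock-in replicate 1 or 3 the edgeR adjusted p was 0.124 and 0.103, and without wild-type replicates 1, 2 and 3 it was 0.0992, 0.0945 and 0.0584, while the log2 fold change stayed between -0.82 and -0.70.

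The other 4 C-type isoforms were lower in the mean but did not pass in edgeR's test, while DESeq2 called Pcdhac2 (adjusted p 0.0325) and Pcdhgc5 (adjusted p 0.00868). Pcdhgc5, which binds a GABA-A receptor subunit, had 11.8, 11.1 and 10.1 CPM in knock-in samples, against 14.03, 18.2 and 15.1 CPM in wild-type samples. Every knock-in value was below every wild-type value. Its log2 fold change was -0.52 ± 0.12 (edgeR adjusted p 0.0704).

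Pcdhac2 had 36.4, 43.9 and 35.3 CPM in knock-in samples and 46.0, 54.0 and 49.6 CPM in wild-type samples. Its groups did not overlap either, at a log2 fold change of -0.37 ± 0.10 (edgeR adjusted p 0.106). With offsets for GC content and length, Pcdhac2 reached -0.52 and Pcdhgc5 -0.59, and both were called at edgeR adjusted p of 0.0162 and 0.0145.

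Pcdhgc3 had 149, 183 and 146 CPM in knock-in samples and 166, 208 and 188 CPM in wild-type samples. Pcdhgc4, needed in mice for the survival of cortical interneurons, had 20.2, 23.4 and 19.1 CPM in knock-in samples and 22.2, 28.2 and 25.8 CPM in wild-type samples. In both genes knock-in replicate 2 lay above wild-type replicate 1, so the groups overlapped. The log2 fold changes were -0.24 ± 0.11 for Pcdhgc3 and -0.28 ± 0.12 for Pcdhgc4, with edgeR adjusted p of 0.295 and 0.240. All 5 C-type genes had a negative log2 fold change under every alternative run. Their median was -0.37, and 3 of the 5 showed no overlap between groups. Every knock-in sample was likewise below every wild-type sample in 33.3% of alternate alpha and 44.4% of alternate gamma genes, and in 11.5% of all genes tested.

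**Figure D3:**
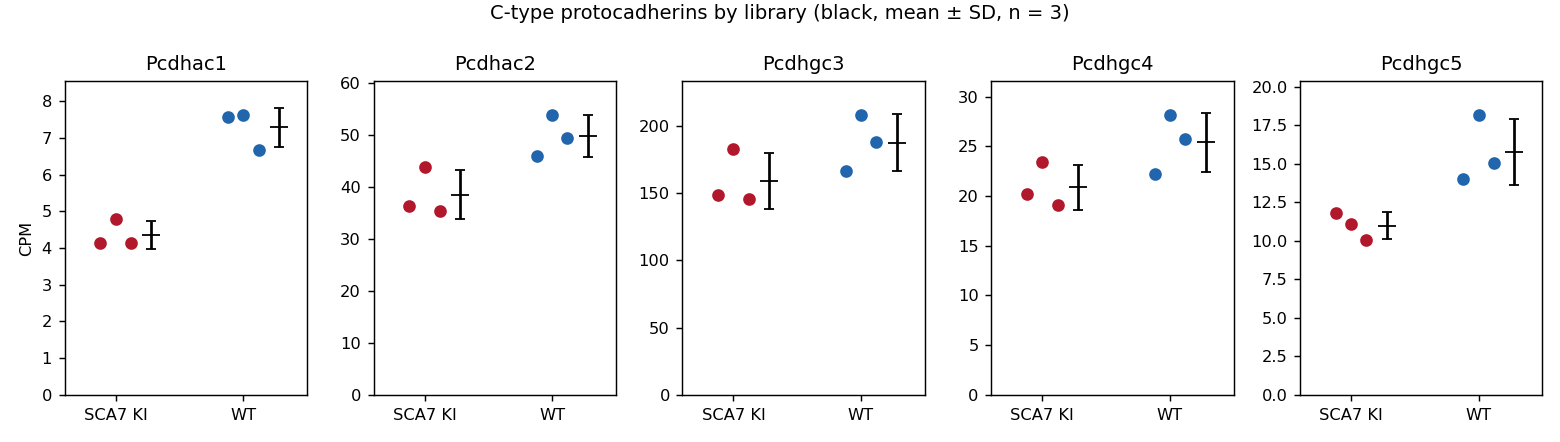
CPM of the 5 C-type isoforms in each library, SCA7 knock-in in red to the left and wild type in blue to the right, with the mean ± SD of 3 samples in black. The axes start at 0. The groups are apart in Pcdhac1, Pcdhac2 and Pcdhgc5 and overlap in Pcdhgc3 and Pcdhgc4.

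Among the alternate alpha isoforms 8 of 12 had a negative log2 fold change and none was called. Pcdha8 had the most negative value, -0.54 ± 0.45, from 0.622, 1.38 and 0.306 CPM in knock-in samples and 0.778, 1.45 and 1.19 CPM in wild-type samples. These ranges overlap widely and its 95% interval ran from -1.55 to 0.46. Pcdha12, the most abundant of them, had 3.90, 5.07 and 3.79 CPM in knock-in samples, against 5.53, 6.20 and 5.19 CPM in wild-type samples. Its groups did not overlap, at a log2 fold change of -0.41 ± 0.16 (edgeR adjusted p 0.223). The largest positive values were 0.10 ± 0.18 for Pcdha6 and 0.07 ± 0.23 for Pcdha5. In the annotation 2 identifiers bear the symbol Pcdha11. The first, ENSMUSG00000007440, starts at 37005203, where RefSeq on the same assembly places Pcdha10 (37005320), and had a log2 fold change of 0.06 ± 0.24. The second, ENSMUSG00000102206, had one of -0.38 ± 0.19, with edgeR adjusted p of 0.919 for the first and 0.320 for the second.

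The beta subcluster had no call, no member at an unadjusted edgeR p under 0.05 and no call by DESeq2. Its most negative value was that of Pcdhb11, with 5.00, 5.19 and 7.40 CPM in knock-in samples and 7.35, 8.85 and 6.82 CPM in wild-type samples. Knock-in replicate 3 fell inside the wild-type range, and the log2 fold change was -0.39 ± 0.18 (edgeR adjusted p 0.281). Pcdhb19 had -0.25 ± 0.12 and was the only beta gene with every knock-in sample below wild type.

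The most positive beta genes were Pcdhb8 and Pcdhb9. Pcdhb8 had 10.1, 7.85 and 7.38 CPM in knock-in samples and 7.19, 5.44 and 7.64 CPM in wild-type samples, with overlap, at 0.32 ± 0.17 (edgeR adjusted p 0.346). Pcdhb9 had 27.9, 23.1 and 26.2 CPM in knock-in samples and 21.3, 24.2 and 24.1 CPM in wild-type samples, again with overlap, at 0.15 ± 0.10. Precision was highest for Pcdhb14, whose log2 fold change of -0.01 had a 95% interval from -0.21 to 0.18. Pcdhb1, with its few counts, had an interval from -1.56 to 1.24, which leaves its direction unread.

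The gamma subcluster had no call by edgeR at the adjusted threshold either, but 8 of its 21 genes had an unadjusted edgeR p under 0.05, all lower, and DESeq2 called 2 of them, Pcdhgb2 and Pcdhgc5. Over all genes tested 8.26% were lower and 9.81% higher at an unadjusted p under 0.05, and DESeq2 called 5.61% in either direction. Pcdhgb2 had 10.9, 12.1 and 8.60 CPM in knock-in samples, against 15.1, 15.8 and 13.7 CPM in wild-type samples. The groups did not overlap, and the log2 fold change was -0.49 ± 0.14 (edgeR adjusted p 0.0993). About 16.4% of its windows of 50 bases occur in another gene, so part of its count could be shared.

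Pcdhgb6, the most abundant alternate isoform per kilobase, had 27.5, 30.4 and 23.5 CPM in knock-in samples and 30.9, 34.8 and 33.1 CPM in wild-type samples. The groups were just apart, at -0.28 ± 0.11 (edgeR adjusted p 0.204). Pcdhga11 had 24.8, 32.2 and 24.1 CPM in knock-in samples and 32.8, 38.4 and 26.0 CPM in wild-type samples. Wild-type replicate 3 lay among the knock-in values, and the log2 fold change was -0.26 ± 0.15. Pcdhgb4 and Pcdhgb5, the least abundant gamma genes, had -0.27 ± 0.14 and -0.22 ± 0.13, each without overlap between groups. The gamma genes nearest to 0, chosen after their values were seen, were Pcdhga10 at -0.01 ± 0.12 and Pcdhga8 at -0.08 ± 0.17. By type, the 12 A genes had a median of -0.26 and the 6 B genes one of -0.27.

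Setting the subclusters against each other within a library removes the scaling between libraries. The ratio of summed gamma to summed beta counts was 2.14, 2.62 and 2.168 in knock-in libraries and 2.69, 2.80 and 2.68 in wild-type libraries. The ratio of alpha to beta counts was 0.347, 0.427 and 0.366 in knock-in libraries and 0.458, 0.483 and 0.468 in wild-type libraries. Neither ratio overlapped between the groups, and in both knock-in replicate 2 was nearest to wild type. Beta genes accordingly held 28.7, 24.7 and 28.3% of all counts of the family in knock-in and 24.1, 23.4 and 24.1% in wild type. With 3 samples in each group these ratios are a description without a test.

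**Figure D4:**
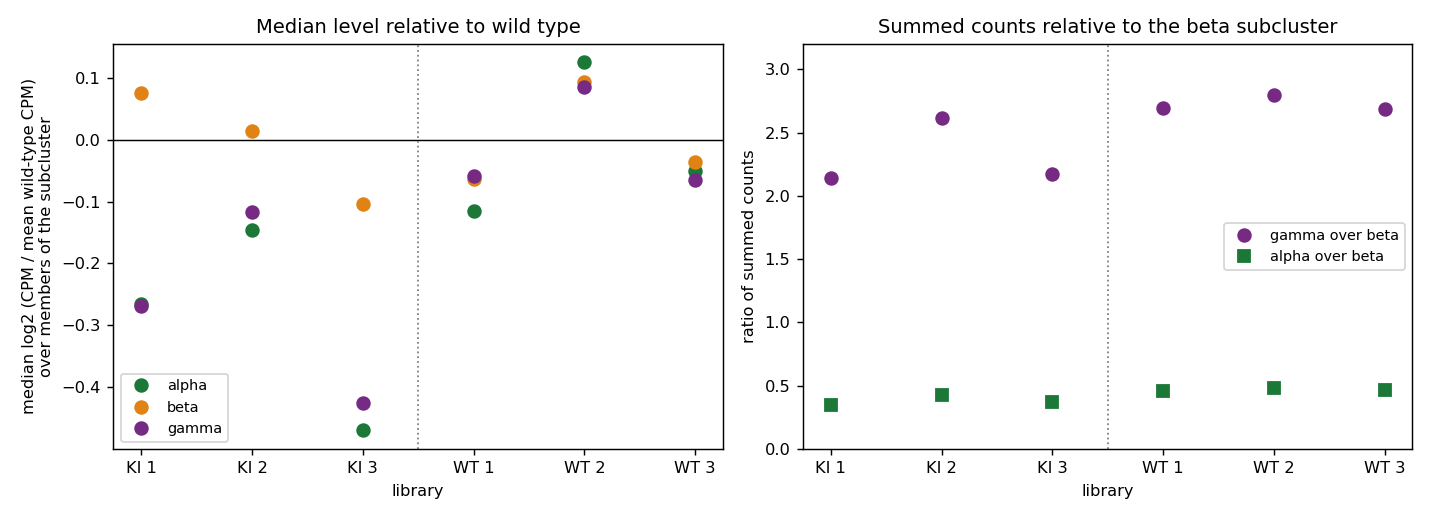
Left, median over the members of each subcluster of the log2 ratio of a library's CPM to the mean wild-type CPM, in the 3 SCA7 knock-in libraries (KI) and the 3 wild-type libraries (WT). Right, summed gamma or alpha counts divided by summed beta counts in the same libraries. The gamma to beta ratio is 2.14 to 2.62 in knock-in and 2.68 to 2.80 in wild type.

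The libraries did not contribute equally. Relative to the mean of wild type, the median gamma gene stood at -0.27, -0.12 and -0.43 in knock-in replicates 1, 2 and 3, and at -0.06, 0.09 and -0.06 in wild-type replicates 1, 2 and 3, all as log2 ratios. The median alpha gene stood at -0.26, -0.15 and -0.47 in knock-in and at -0.11, 0.12 and -0.05 in wild type. Knock-in replicate 3 was the lowest in both and knock-in replicate 2 the highest of its group. Knock-in replicate 3 also had the most negative rank correlation with gene length, -0.42, and wild-type replicate 2 the most positive, 0.28. In the fit with offsets for GC content and length, all 21 gamma, 11 of 14 alpha and 9 of 22 beta genes were negative. The part of base composition and length in the order of the libraries was not tested. Without knock-in replicate 3 the median log2 fold change of alpha genes was -0.19 and that of gamma genes -0.18, with 18 of 21 gamma genes negative.

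Knock-in replicates 1 and 3, which were lower in gamma genes than replicate 2, also had a higher summed level of the brainstem markers. Of the 11 brainstem markers 7 were tested, and 1, the monoamine transporter gene Slc18a2, was called higher, beside 0.629% of all genes. No marker was at 0 in all libraries. In a fit that took the mean level of these markers as a covariate, although it runs partly with genotype, the median was -0.20 for gamma, -0.14 for alpha and -0.06 for beta genes. In that fit 16 of 21 gamma genes and all 5 C-type genes were negative. No member was called in it, where only 3 of all genes were. Pcdhac1 had a log2 fold change of -0.66 ± 0.22 there (edgeR adjusted p 0.811) and Pcdhgc5 one of -0.66 ± 0.20 (edgeR adjusted p 0.697). Without the covariate these were -0.74 and -0.52. Pcdhac2, Pcdhgc4 and Pcdhgc3 had -0.26 ± 0.16, -0.21 ± 0.19 and -0.13 ± 0.17 with it, against -0.37, -0.28 and -0.24 without. All 5 SEs were larger with the covariate. The part of brainstem RNA in the lower levels was not tested.

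Markers of cells of the cerebellar cortex were called lower in part, where 1.28% of all genes tested were called lower. Of 10 Purkinje cell markers 7 were called lower, with summed levels of 8883, 10662 and 9468 CPM in knock-in and 15324, 15185 and 13596 CPM in wild type. Of 8 granule neuron markers 3 were called lower (summed 3588, 4328 and 3586 CPM in knock-in, and 4842, 5086 and 4624 CPM in wild type), and of 8 astrocyte and Bergmann glia markers 4 were. The 8 interneuron markers had 0 calls, 4 of them being lower at an unadjusted edgeR p under 0.05, beside 8.26% of all genes. The part of these cell types in the lower alpha and gamma levels was not tested. In bulk tissue, fewer cells of a type and less RNA per cell cannot be told apart. Choroid plexus markers, summed at 280, 26.9 and 1320 CPM in knock-in and 533, 509 and 1917 CPM in wild type, varied within both groups, with 0 of 9 called.

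The median coefficient of variation over members was 12.7% in knock-in and 10.02% in wild type, against 10.04% and 9.19% over all genes tested. It was 13.02% in knock-in and 15.5% in wild type for alpha genes, 10.7% and 10.5% for beta genes, and 13.04% and 9.35% for gamma genes. Over all genes tested the log2 fold change had a rank correlation of 0.33 with GC content, whereas over the 57 members it was -0.39. The median GC content of own bases was 52.9% in alpha, 51.4% in gamma and 46.1% in beta genes. Within subclusters the rank correlation of log2 fold change with GC content was -0.22 over 14 alpha, 0.07 over 22 beta and -0.09 over 21 gamma genes. Over the 12 alternate alpha isoforms alone it was -0.48. Place along the array had rank correlations with the log2 fold change of -0.29 in alpha, -0.26 in beta and -0.12 in gamma genes. These are descriptions over genes that share libraries and depth.

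The genes next to the members showed no call. Within 500 kb of the locus lie 66 other rows of the table, 34 of them tested. None was called by edgeR and DESeq2 called 1, against 1.90% and 5.61% of all genes tested. At an unadjusted edgeR p under 0.05, 3 were lower and 2 higher, where 8.26% and 9.81% of all genes were. The median log2 fold change of the neighbours was 0.08. The growth factor gene Hbegf had the smallest p, at 28.1, 32.2 and 30.8 CPM in knock-in samples and 37.5, 37.2 and 37.3 CPM in wild-type samples (log2 fold change -0.30 ± 0.08, edgeR adjusted p 0.105). The most abundant neighbour, the ubiquitin ligase gene Rnf14, had -0.03 ± 0.08. Chosen after its values were seen, Taf7, a general transcription factor gene that lies between the beta and gamma arrays, had 16.4, 16.6 and 16.4 CPM in knock-in samples and 20.7, 17.5 and 16.4 CPM in wild-type samples. Its log2 fold change was -0.15 ± 0.11.

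Of 25 genes for proteins that act on protocadherin promoters, edgeR called 0 and DESeq2 1, against 1.90% and 5.61% of all genes tested. At an unadjusted edgeR p under 0.05, 3 were lower and 1 higher, where 8.26% and 9.81% of all genes were. The median log2 fold change of the list was -0.09. Ehmt2, a histone H3 lysine 9 methyltransferase, had the smallest p, at 101, 119 and 108 CPM in knock-in samples and 68.6, 90.4 and 92.0 CPM in wild-type samples. The groups did not overlap, at 0.39 ± 0.12 (edgeR adjusted p 0.125), and this was the gene that DESeq2 called. The cohesin subunit gene Rad21, the most abundant of the list, had -0.08 ± 0.07. Ctcf had -0.12 ± 0.09 and Smchd1, a repressor of this locus in mice, -0.23 ± 0.11, and neither passed.

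Of 20 genes for partners of the proteins, 1 was called lower and 1 higher, beside 1.90% of all genes called in either direction. The list was chosen with earlier results of these data known, so its share of calls cannot be weighed against that background. Ptk2b, a tyrosine kinase that binds the cytoplasmic part of clustered protocadherins and is held in check by it, had 9.36, 8.08 and 9.57 CPM in knock-in samples, against 22.0, 22.9 and 21.1 CPM in wild-type samples. It fell by 1.29 ± 0.11 on the log2 scale (edgeR adjusted p 0.000607). Marcks, an actin-binding protein kinase C substrate through which gamma protocadherins act on dendrites in mice, had 140, 136 and 128 CPM in knock-in samples and 86.6, 99.6 and 91.7 CPM in wild-type samples. It rose by 0.54 ± 0.08 on the log2 scale (edgeR adjusted p 0.0141). The call of Marcks was lost without knock-in replicate 1 (adjusted p 0.0924) and without wild-type replicate 1 or 3 (0.0705 and 0.0687). The other 18 partners were not called, and their log2 fold changes lay between -0.25 and 0.20.

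**Figure D5:**
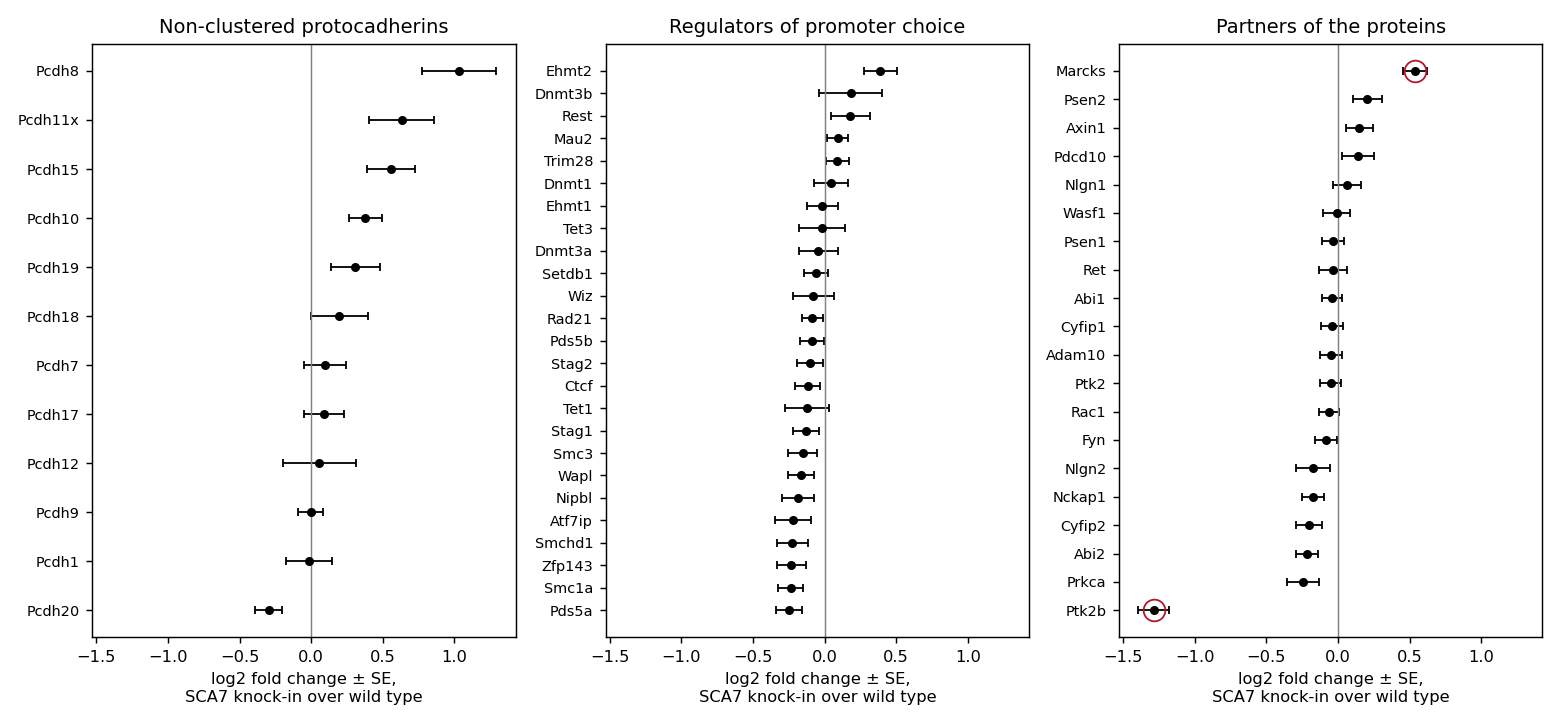
Log2 fold change of SCA7 knock-in over wild type with the standard error for 12 non-clustered protocadherins, 25 regulators of promoter choice and 20 partners, each panel sorted by the change. Red rings mark the genes called at an adjusted p at or under 0.05, Marcks at 0.54 and Ptk2b at -1.29. Pcdh8 has the highest value among the non-clustered protocadherins, 1.03.

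Protocadherins encoded outside the cluster had a positive median, 0.15 over 12 genes. None was called by edgeR and DESeq2 called 1, against 1.90% and 5.61% of all genes tested. At an unadjusted edgeR p under 0.05, 4 were higher and 1 lower, where 9.81% and 8.26% of all genes were. Pcdh8, an activity-regulated synaptic protocadherin, had 4.65, 3.41 and 4.01 CPM in knock-in samples, against 1.43, 2.84 and 1.63 CPM in wild-type samples. Its groups did not overlap, and the log2 fold change was 1.03 ± 0.26 (edgeR adjusted p 0.0805). Pcdh9, the most abundant, had 174, 170 and 149 CPM in knock-in samples and 172, 168 and 155 CPM in wild-type samples, with a log2 fold change of -0.0045. The difference in direction between these genes and the gamma subcluster was not tested.

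Of 8 other receptors and ligands that keep neurites of a cell apart, edgeR called 0 and DESeq2 1, against 1.90% and 5.61% of all genes. At an unadjusted edgeR p under 0.05, 2 were lower and 1 higher, where 8.26% and 9.81% of all genes were. Robo2, which acts with its ligand Slit2 in the self-avoidance of Purkinje cell dendrites in mice, had 46.0, 44.4 and 40.7 CPM in knock-in samples, against 51.7, 55.3 and 55.1 CPM in wild-type samples. The groups did not overlap, at -0.31 ± 0.08 (edgeR adjusted p 0.0929). Megf11, the most abundant of the list, had 130, 181 and 145 CPM in knock-in samples and 179, 204 and 177 CPM in wild-type samples. Knock-in replicate 2 overlapped the wild-type values, and the log2 fold change was -0.30 ± 0.12 (edgeR adjusted p 0.223).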

How the data were processed

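Per the submitters' processing notes, the authors used bcl2fastq 2.17.1.14, TopHat2 2.0.14, Bowtie2 2.1.0, HTSeq 0.6.1 and build mm10. Per the labels' protocols, libraries were stranded and made from polyadenylated RNA. The deposited table holds unnormalised counts, 1 row for each Ensembl identifier. For the annotation release, counting mode and strand setting the entry is: not given in the sources used here. Symbols, coordinates, own bases (exon bases of 1 gene only on its strand) and GC content were taken from GENCODE M21 (mm10), where 48349 of 48709 identifiers were found.

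All genes were fitted together in R 4.3.3 with edgeR 4.0.16 (filterByExpr with minimum count 10 and minimum total count 15, TMM, quasi-likelihood F test on genotype alone, Benjamini-Hochberg adjustment over 16699 genes, threshold 0.05), and all 57 members passed the filter. The SE is the absolute log2 fold change divided by the square root of F, and intervals are at 95%. Library pairs of a group differed by more than sampling noise (chi-square per degree of freedom 14.1 to 30.5), so each counted as 1 sample.

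Alternatives were RLE scaling, library size alone, no filter, DESeq2 1.42.0, limma-voom (limma 3.58.1), an adjusted p of 0.1, GC and length offsets (mgcv), the replicate number as a block, a brainstem covariate and each sample left out. The procedure was tested on simulated data. The members and lists were chosen with earlier results of these data known. Named genes are the C-type isoforms, in each subcluster the 3 highest and 2 lowest by level and the 2 most positive and 2 most negative by log2 fold change, called members, of each related list the called genes or else those with the smallest p and the highest level, and Atxn7. Others were chosen after their values were seen. Sequences of this locus are not printed here.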

Additional observations from a re-analysis of the deposited data

How the results depend on the processing

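Of 16699 genes edgeR called 318, while DESeq2 called 936, an adjusted p of 0.1 gave 721, GC and length offsets 734, no filter 1303, library size alone 513 (190 lower, 323 higher), the brainstem covariate 3, and leaving out 1 sample 39 to 858. The members called, 1 in the reported fit, numbered 5 without the filter, 4 with DESeq2, 3 at 0.1, 3 with the offsets, 0 with the brainstem covariate and 0 to 4 without 1 sample. Among C-type genes these counts were 3, 3, 2, 3, 0 and 0 to 2. Regulators called were 1 with library size alone, with no filter and with DESeq2. Partners called were 1 with the brainstem covariate and 1 to 2 without 1 sample. Non-clustered protocadherins called were 1 with library size alone, DESeq2 or an adjusted p of 0.1, 2 with the offsets, 3 with no filter, and 0 to 3 without 1 sample. Self-avoidance genes called were 2 with no filter, 1 with DESeq2 or at 0.1, and 0 to 1 without 1 sample, and neighbours 1 with DESeq2. The alpha median was -0.14 with the brainstem covariate and -0.38 to -0.19 without 1 sample. The ratio of gamma to alpha levels was 5.95 per whole exon length. The causes were not tested. The beta median changed sign with library size alone (0.07), limma-voom (0.01), the offsets (0.02), without knock-in replicate 3 (0.04) and without wild-type replicate 2 (0.03), and no result that had a call reversed.

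With wild-type replicate 1 and knock-in replicate 3 both left out, a setting chosen after seeing the data, 13 genes, 0 members and 1 partner were called, the beta median was 0.01 and Pcdhac1 had a log2 fold change of -0.68 with an adjusted p of 0.258 in edgeR's test. Of the values of single named genes, 521 kept their side of the threshold, 45 passed it only under the alternative and 12 lost it.

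Same-numbered samples deviated together with correlations of 0.00114, 0.174 and 0.318 for replicates 1, 2 and 3. Replicates 2 and 3 matched best with their own number and replicate 1 did not. The labels name no batch or pairing, so the reported fit left the replicate number out. With the replicate block 2034 genes, 7 members, 4 C-type genes, 4 regulators, 5 partners, 4 non-clustered protocadherins, 2 self-avoidance genes and 3 neighbours were called. The block with GC and length offsets gave 1502 genes, 12 members, 5 C-type genes, 4 partners, 4 non-clustered protocadherins and 2 neighbours.

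The 3 samples in each group and counts as low as 3 per library (Pcdhb1) limit single genes, and 3 against 3 samples cannot give an exact permutation p under 0.1.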
